A study of Mus musculus with 6 samples.

Results

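Mast cells and basophils are the histamine-storing cells of skin and blood, and 10 genes that mark them or make their mediators were read in tick-bitten mouse ear skin with and without adiponectin. The genes were the granule proteases Cpa3, Cma1, Mcpt4, Mcpt8 and Tpsb2, the receptors Kit, Fcer1a and Ms4a2, and the mediator enzymes Hdc and Hpgds. Each was taken by its gene symbol from a table of 15667 genes. A row was found for 9 of the 10, and all 9 passed the filter of an average of 1 CPM or more (counts per 1000000 reads) together with 14306 genes in all. Mcpt8, the protease that marks mouse basophils, had no row in the table used here and was not analysed. Every listed gene had at least 10 reads over the 6 libraries, so the table does not tell how far below that a gene without a row lay.

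The study asked how adiponectin, a hormone secreted by fat cells, acts at the site where Ixodes scapularis ticks feed. RNA-seq was done on ear skin of female mice aged 7 to 8 weeks from the B6;129-Adipoqtm1Chan/J line. The groups were Adipo+/+ mice (WT, n = 3) and littermates that were Adipo-/- (KO, n = 3). All 6 mice carried 10 ticks for 48 h, and each library came from a single punch of a bite site. Both groups were therefore bitten, and unbitten skin was not analysed here. The null allele is carried in all tissues, not in fat cells alone. The values are from whole skin, in which fewer cells of a type and less RNA per cell cannot be told apart.

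Mast cells live in the dermis, depend on KIT signaling, and fill their granules with histamine, heparin and proteases. Connective-tissue mast cells of mouse skin are known for the chymases MCPT4 and CMA1, the tryptase TPSB2 and carboxypeptidase A3. Antigen that bridges IgE on the receptor FcεRI empties the granules and starts the synthesis of prostaglandin D2 and leukotriene C4. Basophils carry the same IgE receptor and make histamine too, but they circulate in blood and enter skin during inflammation, including at tick bites.

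Implied depth was between 3403701 and 6591491 reads per library, and 3 reads corresponded to 0.455 to 0.881 CPM. The targeted gene Adipoq (chromosome 16, 23146536 to 23157968, plus strand) stood at 30.5, 63.7 and 49.6 CPM in WT replicates 1, 2 and 3. It was at 0, 0.560 and 0 CPM in KO replicates 1, 2 and 3, so all labels matched their genotype. Keratin and collagen genes of skin were found in all libraries, with 9 of 10 listed markers present and a summed level of 25758 to 46082 CPM. WT replicate 3 stood apart in 20 hair follicle genes, which summed to 24502 CPM there, 53.5 to 70.6 CPM in the other WT libraries and 1064 to 9708 CPM in KO. WT replicate 1 held the highest sum of 8 neutrophil genes. Both libraries are named again below for some of the results they touch.

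None of the mast cell and basophil genes tested passed for a difference between KO and WT skin, and each was found in both genotypes. Of the 9 genes tested, 0 passed at an adjusted p below 0.05 (limma with Benjamini-Hochberg adjustment over all genes tested), where 0.014% of all genes passed. At an unadjusted p below 0.05 the count was also 0 of 9, beside 2.88% of all genes (1.82% lower and 1.06% higher in KO), and limma voom on the implied reads gave 0 of 9 as well. The split of all genes at that level, 260 lower and 152 higher in KO, moved to 215 and 210 with median-of-ratios rescaling and to 193 and 232 with quantile normalization, and 0 of the 9 passed under either. The values of the groups overlapped for all 9 genes, whereas they did not overlap for 7.84% of all genes. The log2 fold change of KO over WT was below 0 for 6 genes and above 0 for 3, with a median of -0.19 beside -0.03 over all genes tested. With 3 libraries a group, a p that misses the threshold does not show equal levels, and the 95% intervals are given with each gene.

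**Figure D1:**
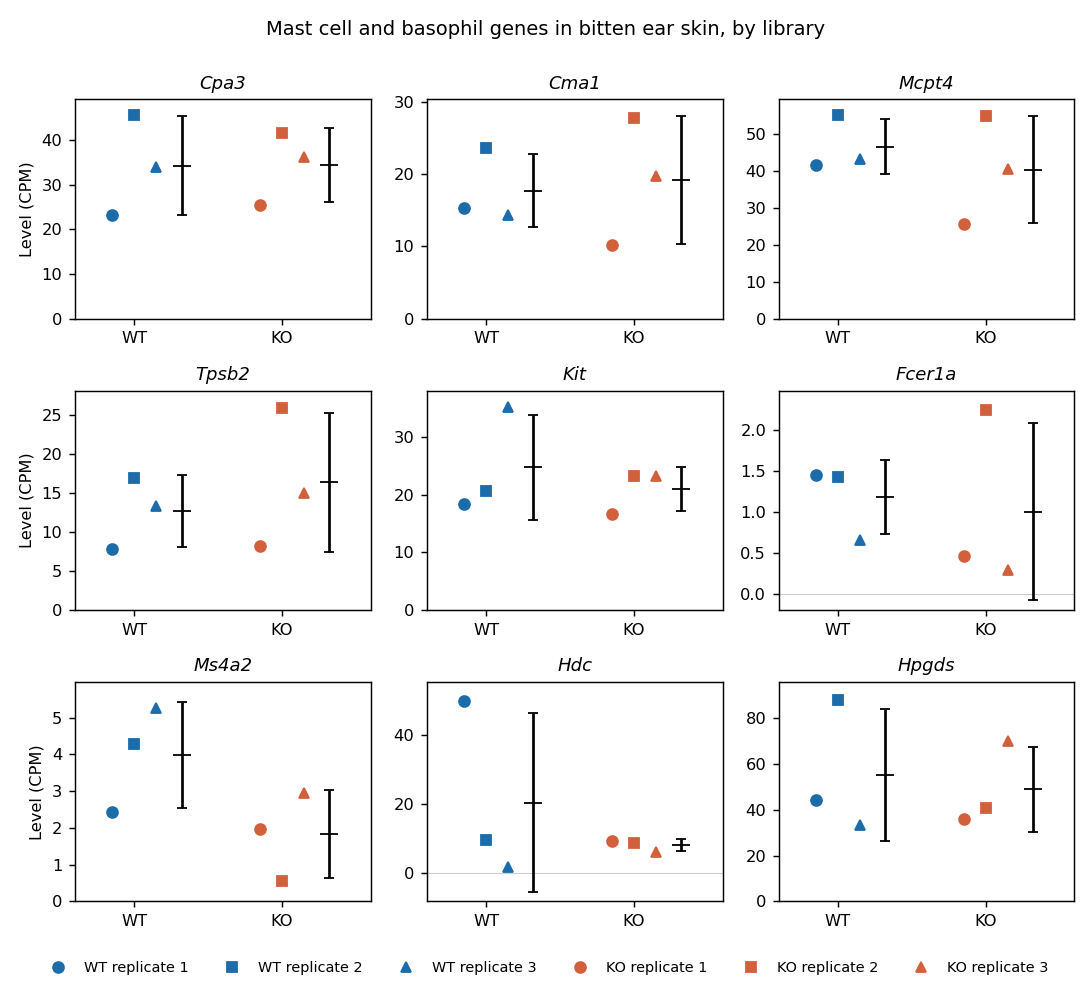
Level of each of the 9 genes in CPM (vertical axes, linear and separate for each gene) in WT and KO libraries. Points are single libraries, and bars give the mean and SD of each group (n = 3). In every panel the KO points fall within or overlap the range of the WT points, and the single high Hdc value of 49.9 CPM belongs to WT replicate 1.

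The granule proteases define the connective-tissue mast cell. Cpa3 encodes carboxypeptidase A3, a zinc exopeptidase stored with heparin in mast cell granules (chromosome 3, 20215616 to 20242181, minus strand). It stood at 23.2, 45.6 and 34.0 CPM in WT replicates 1, 2 and 3 and at 25.3, 41.5 and 36.1 CPM in KO replicates 1, 2 and 3. The group means were the same to the digits given, 34.3 ± 11.2 CPM for WT and 34.3 ± 8.22 CPM for KO (SD, n = 3). Replicate 1 was the lowest and replicate 2 the highest in each group, and the ranges overlapped almost fully. The log2 fold change was 0.03 (SE 0.27, 95% interval -0.61 to 0.66, limma).

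Mcpt4 and Cma1 both lie on chromosome 14, with 115 kb between them, and both encode serine proteases of the chymase family. Mcpt4 (56059744 to 56062310, minus strand) was at 41.4, 54.9 and 43.2 CPM in the WT replicates and at 25.6, 54.6 and 40.5 CPM in the KO replicates. KO replicate 1 was the lowest library and the other KO libraries lay within or just under the WT range. The means were 46.5 ± 7.35 CPM in WT and 40.3 ± 14.5 CPM in KO, a log2 fold change of -0.26 (SE 0.26, 95% interval -0.87 to 0.35). Without KO replicate 1 the log2 fold change was 0.03.

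Cma1 (55941451 to 55944675, minus strand) was at 15.2, 23.6 and 14.3 CPM in WT and at 10.2, 27.7 and 19.7 CPM in KO. The lowest and the highest library were both KO, which put all WT values inside the KO range. Means were 17.7 ± 5.10 CPM in WT and 19.2 ± 8.80 CPM in KO, with a log2 fold change of 0.04 (SE 0.36, 95% interval -0.80 to 0.88). Reads from short shared stretches may be split with related genes: 5.38% of the 50-base windows of the Cma1 transcript also occur in Gm48934, and 5.48% of those of Mcpt4 occur in Cma2, which had no row.

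Tpsb2 encodes the tetrameric tryptase of connective-tissue mast cells (chromosome 17, 25366333 to 25368092, plus strand). It was at 7.75, 16.9 and 13.4 CPM in WT and at 8.19, 25.8 and 14.98 CPM in KO. KO replicate 2 was the highest library, and the other KO values fell between the lowest and the highest WT value. Means were 12.7 ± 4.61 CPM in WT and 16.3 ± 8.87 CPM in KO, with a log2 fold change of 0.28 (SE 0.43, 95% interval -0.72 to 1.27). Leaving out KO replicate 2 gave -0.12, and leaving out KO replicate 1 gave 0.68. The related Tpsab1, annotated as a pseudogene in RefSeq, lay at 0 to 1.21 CPM.

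The summed level of Cpa3, Cma1, Mcpt4 and Tpsb2 came to 87.6, 141 and 105 CPM in WT and to 69.3, 149.6 and 111 CPM in KO. KO held both the lowest and the highest library, which differed by 2.16-fold. The mean sums were 111 ± 27.2 CPM in WT and 110 ± 40.2 CPM in KO, a ratio of 0.991. The differences among mice of one genotype were larger than the difference between genotypes.

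The promoters of these proteases are shown because these are the granule genes of the cell and GATA2 is known as a regulator of mast cell genes. The 250 bases before each RefSeq start (GRCm38.p6), read 5′ to 3′ on the strand of the gene, are given for the proteases of the table that have one and for Fcer1a, described below. They are chr3:20242182-20242431 for Cpa3, chr14:55944676-55944925 for Cma1, chr14:56062311-56062560 for Mcpt4 and chr1:173227230-173227479 for Fcer1a, all on the minus strand. Capitals mark the letters GATAA, or TTATC where they stand on the other strand.
Cpa3: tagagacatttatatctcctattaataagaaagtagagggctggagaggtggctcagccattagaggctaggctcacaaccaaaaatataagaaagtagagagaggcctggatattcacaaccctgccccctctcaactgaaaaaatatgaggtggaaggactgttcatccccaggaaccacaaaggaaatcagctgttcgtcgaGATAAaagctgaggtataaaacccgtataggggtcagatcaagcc
Cma1: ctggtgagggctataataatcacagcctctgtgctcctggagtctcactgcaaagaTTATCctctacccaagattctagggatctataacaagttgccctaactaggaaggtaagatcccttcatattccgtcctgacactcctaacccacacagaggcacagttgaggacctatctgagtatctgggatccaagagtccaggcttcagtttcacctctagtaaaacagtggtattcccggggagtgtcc
Mcpt4: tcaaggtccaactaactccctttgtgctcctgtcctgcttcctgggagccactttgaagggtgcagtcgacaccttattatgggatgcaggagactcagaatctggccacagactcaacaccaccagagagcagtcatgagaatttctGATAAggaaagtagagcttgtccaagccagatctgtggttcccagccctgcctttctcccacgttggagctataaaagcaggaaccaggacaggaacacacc
Fcer1a: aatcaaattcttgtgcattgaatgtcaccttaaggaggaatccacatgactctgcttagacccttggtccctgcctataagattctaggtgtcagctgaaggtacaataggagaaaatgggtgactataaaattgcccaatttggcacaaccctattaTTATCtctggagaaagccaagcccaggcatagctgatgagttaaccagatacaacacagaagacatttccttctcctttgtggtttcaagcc
The letters stood 45 bases before the start of Cpa3, 194 before that of Cma1, 102 before that of Mcpt4 and 92 before that of Fcer1a. A promoter was found for 9 of the 10 genes, all but Tpsb2, and GATAA was present on either strand in 5 of them, the 4 above and Ms4a2 with 3 copies. Of all 32851 promoters of this length, 22.6% held it. It was not in the window of Mcpt8, Kit, Hdc or Hpgds. Some of these windows overlapped an annotated (GENCODE) exon of their own gene, so part of them is transcribed. The longest overlap was 178 bases in Hpgds, 76 in Mcpt8, 71 or 75 in the windows of Kit and 0 in Hdc. The E-box letters CANNTG were in 6 of the 9, beside 66.2% of all promoters. A match of letters is a description and not a site of binding.

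Relative to Cpa3 in the same library, the other proteases varied less than in level. The ratio of Cma1 to Cpa3 was 0.656, 0.518 and 0.422 in WT and 0.401, 0.669 and 0.545 in KO, a 1.67-fold range, while the level of Cma1 itself ranged 2.73-fold. For Mcpt4 the ratio was 1.78, 1.21 and 1.27 in WT and 1.01, 1.32 and 1.12 in KO, a 1.76-fold range beside 2.14-fold in level. For Tpsb2 it was 0.333, 0.371 and 0.393 in WT and 0.323, 0.622 and 0.415 in KO, a 1.92-fold range beside 3.33-fold. In each case the WT and KO ratios overlapped. Hpgds also varied less as a ratio (1.98-fold) than in level (2.64-fold). The fold range of the other genes was wider as a ratio than in level: Kit 2.28-fold beside 2.11-fold, Fcer1a 7.69-fold beside 7.63-fold, Ms4a2 11.5-fold beside 9.41-fold and Hdc 44.2-fold beside 30.2-fold.

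**Figure D2:**
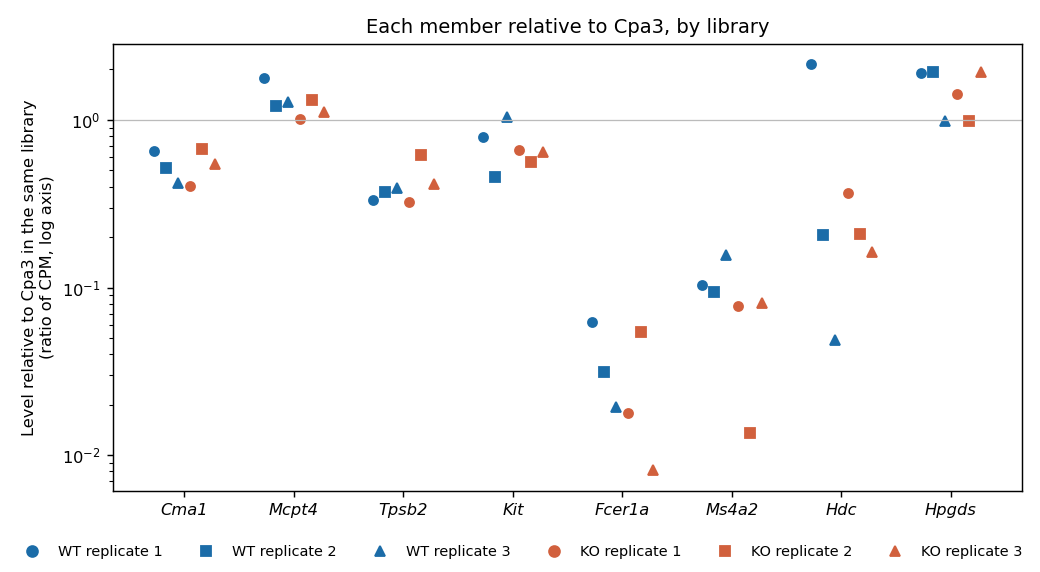
Level of each gene divided by that of Cpa3 in the same library (vertical axis, ratio of CPM on a log axis), for 3 WT and 3 KO libraries. Each point is 1 library. Cma1, Mcpt4 and Tpsb2 keep within a 1.67-fold to 1.92-fold range, while Hdc runs from 0.0485 to 2.15 times Cpa3.

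Per kilobase of the longest coding transcript, Mcpt4 had the highest mean level over the 6 libraries, 39.2 ± 9.78 CPM per kb (SD). Cpa3 followed with 23.7 ± 6.05 and Cma1 with 16.9 ± 5.95 CPM per kb, and this order held in all 6 libraries. Hpgds (14.98 ± 6.34 CPM per kb) and Tpsb2 (11.2 ± 5.14) did not differ from their neighbours beyond their spread: Cma1 was above Hpgds in 3 of 6 libraries, and Hpgds above Tpsb2 in 4 of 6. Hdc (5.90 ± 7.42 CPM per kb) was above Kit (4.38 ± 1.26) in only 2 of 6 libraries. Kit was above Ms4a2 (1.22 ± 0.702) in all 6, and Ms4a2 above Fcer1a (1.09 ± 0.749) in 4 of 6.

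Kit encodes the receptor tyrosine kinase for stem cell factor, on which mast cells depend for survival, and melanocytes carry it too. Kit (chromosome 5, 75574987 to 75656721, plus strand) was at 18.4, 20.7 and 35.3 CPM in WT and at 16.7, 23.3 and 23.2 CPM in KO. WT replicate 3 was the highest and the other libraries lay close together. Means were 24.8 ± 9.15 CPM in WT and 21.1 ± 3.78 CPM in KO, with a log2 fold change of -0.19 (SE 0.27, 95% interval -0.80 to 0.42). Without WT replicate 3 it was 0.09, and with a covariate for hair follicle genes it was -0.42, at an unadjusted limma p of 0.0693 and an adjusted p of 0.855.

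The library with most Kit also held most melanocyte RNA. Of 9 listed melanocyte genes 7 had a row, and they summed to 4.88 to 94.1 CPM in WT and 8.23 to 9.25 CPM in KO. The 94.1 CPM were in WT replicate 3, where 6 of the 7 genes, including the pigment genes Dct, Tyrp1 and Pmel, had their highest value. The pigment enzyme gene Tyr was at 0 in the other WT libraries. The part of melanocytes in the Kit level was not tested.

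Fcer1a and Ms4a2 encode the IgE-binding alpha chain and the signal-amplifying beta chain of FcεRI. Fcer1a (chromosome 1, 173221271 to 173227229, minus strand), whose promoter is printed above, was near the floor, with 1.45, 1.42 and 0.659 CPM in WT and at 0.455, 2.24 and 0.294 CPM in KO. It was below 1 CPM in 3 of 6 libraries, and these values stood for 6, 7 and 4 reads in WT and 3, 8 and 1 in KO. Per read of depth, KO held 0.786 times the WT reads of Fcer1a, with a 95% exact binomial interval of 0.343 to 1.75 that covers counting error only. The limma log2 fold change was -0.36 (SE 0.58, 95% interval -1.70 to 0.98), so a difference was not detectable at this depth.

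Ms4a2 (chromosome 19, 11615521 to 11623719, minus strand) had the lowest limma log2 fold change of the 9 genes on all 6 libraries, although the group means of Hdc, described below, differed by more. It was at 2.42, 4.27 and 5.28 CPM in WT and at 1.97, 0.560 and 2.94 CPM in KO. KO replicate 3 lay above WT replicate 1, so the groups overlapped, and KO replicate 2 was below 1 CPM. Means were 3.99 ± 1.45 CPM in WT and 1.82 ± 1.20 CPM in KO.

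The log2 fold change of Ms4a2 was -1.05 (SE 0.51, 95% interval -2.23 to 0.12), with an unadjusted p of 0.0721 and an adjusted p of 0.998 in limma. By unadjusted p it ranked 648 among the 14306 genes. The values rested on 10, 21 and 32 reads in WT and 13, 2 and 10 in KO. Per read of depth, KO held 0.442 times the WT reads, and the exact binomial interval of 0.267 to 0.713 leaves out the spread between mice. The unadjusted call depended on single libraries. The value was -1.33 without WT replicate 1, at an unadjusted limma p of 0.0478, and -1.41 without KO replicate 3, at an unadjusted limma p of 0.0335. It was -0.57 when KO replicate 2 was left out. The adjusted p stayed at or above 0.855 in all 16 alternatives that gave a value.

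**Figure D3:**
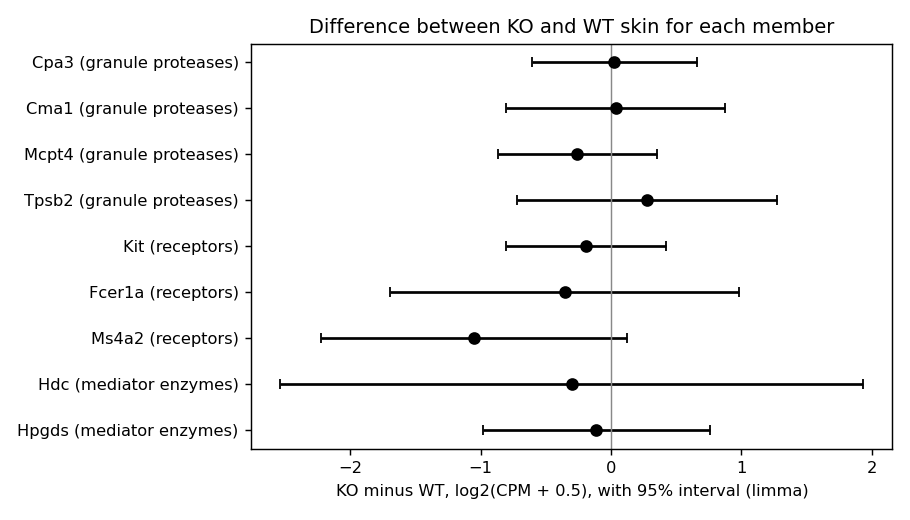
Difference between KO and WT skin for each gene (horizontal axis, log2(CPM + 0.5), KO minus WT), with its role on the vertical axis. Points are limma estimates from 3 WT and 3 KO libraries and bars are 95% intervals. All 9 intervals include 0, from the narrow one of Mcpt4 (-0.87 to 0.35) to that of Hdc (-2.54 to 1.94).

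Hdc encodes histidine decarboxylase, the only enzyme that makes histamine in mammals, and it is transcribed in mast cells and basophils as well as in neutrophils and other myeloid cells. Hdc (chromosome 2, 126593660 to 126618678, minus strand) was at 49.9, 9.36 and 1.65 CPM in WT and at 9.25, 8.69 and 5.88 CPM in KO. Both the highest and the lowest value were WT, and all KO values lay between them. The range was 30.2-fold, and its SD over the libraries on the log2 scale, 1.46, was larger than that of 98.5% of genes tested (median 0.255).

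Group means of Hdc were 20.3 ± 25.9 CPM in WT and 7.94 ± 1.81 CPM in KO, but they rested on WT replicate 1. The log2 fold change was -0.30 (SE 0.97, 95% interval -2.54 to 1.94). It was 0.85 without WT replicate 1 and -1.42 without WT replicate 3, the latter at an unadjusted limma p of 0.0376 and an adjusted p of 0.964.

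The 6 libraries stood in the same order for Hdc and for the summed neutrophil genes, a comparison chosen after the values were seen. Of 12 listed neutrophil genes 8 had a row, and they summed to 605, 239 and 71.6 CPM in WT and to 233, 134 and 132 CPM in KO. Ly6g, Ngp, Ltf and Camp had no row, so the sum is not a measure of neutrophil number. In WT replicate 1 its largest parts were S100a9 (273 CPM) and S100a8 (143 CPM). WT replicate 1 held the highest value of 7 of the 8 genes and WT replicate 3 the lowest of 6. S100a9, which encodes a calcium-binding protein that fills the neutrophil cytosol, was at 273, 69.2 and 4.62 CPM in WT and at 80.4, 24.7 and 20.3 CPM in KO. Mmp8, a neutrophil collagenase gene, was at 0 in KO replicate 3. The order of the granule proteases was another, with Cpa3 lowest in WT replicate 1. The part of neutrophils in the Hdc level was not tested.

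Hpgds encodes hematopoietic prostaglandin D synthase, which makes prostaglandin D2 in mast cells and also in some macrophages and T cells. Hpgds (chromosome 6, 65117293 to 65144730, minus strand) was at 44.3, 88.1 and 33.3 CPM in WT and at 36.0, 40.6 and 70.2 CPM in KO. WT replicates 2 and 3 were the highest and the lowest, and all KO values lay between them. Means were 55.2 ± 29.0 CPM in WT and 48.9 ± 18.6 CPM in KO, with a log2 fold change of -0.11 (SE 0.38, 95% interval -0.98 to 0.76). Without WT replicate 2 it was 0.28, and without WT replicate 3 it was -0.41.

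All 12 listed macrophage genes had a row, none at 0, and they summed to 801 to 1362 CPM in WT and 767 to 1335 CPM in KO. WT replicate 2 was the highest for both Hpgds and this sum, but KO replicate 2, with 1335 CPM, had an Hpgds level of only 40.6 CPM. The part of macrophages in the Hpgds level was not tested.

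**Figure D4:**
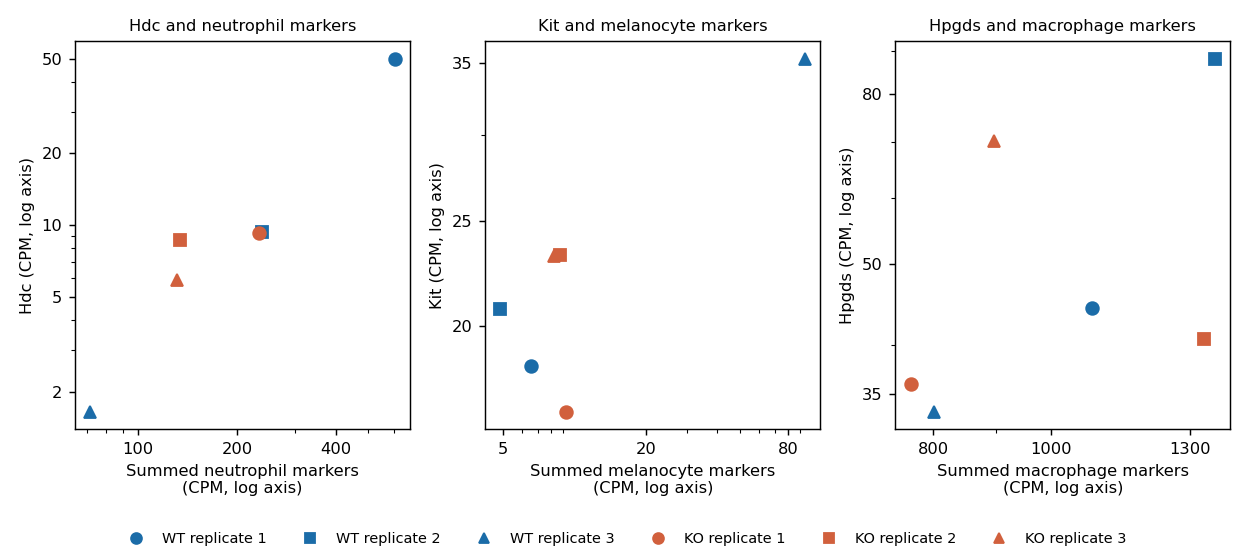
Hdc, Kit and Hpgds in CPM (vertical axes, log) against the summed CPM of neutrophil, melanocyte and macrophage marker genes (horizontal axes, log), with 1 point for each of the 6 libraries. Hdc rises with the neutrophil sum from WT replicate 3 (1.65 CPM) to WT replicate 1 (49.9 CPM), and WT replicate 3 stands alone for Kit and the melanocyte sum.

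Several basophil genes were not analysed and others had low levels. Beside Mcpt8, the basophil protease gene Prss34 and the cytokine genes Il4 and Il13 had no row and were not analysed. Cd200r3, a receptor of basophils and mast cells, lay at 0.294 to 1.12 CPM, and the chemokine receptor gene Ccr3 at 0 to 1.22 CPM. Il3ra, the interleukin 3 receptor gene, was at 2.90, 2.85 and 3.13 CPM in WT and at 0.910, 3.08 and 2.94 CPM in KO. Itga2, which basophils share with keratinocytes, was at 26.1 to 46.4 CPM. Of 6 eosinophil genes only Ear2 had a row. By contrast, Mrgprb2, the mast cell receptor for basic secretagogues, was found in all libraries, at 4.84, 6.10 and 4.95 CPM in WT and at 3.03, 7.57 and 7.35 CPM in KO. Each of the 4 granule proteases and Mrgprb2 was thus above the 3-read floor in all 6 libraries, and Cd200r3 and Ccr3 were not above 1.22 CPM in any. Low levels were not confined to basophil genes. The mast cell tryptase gene Tpsg1 lay at 0.242 to 0.841 CPM. Tpsab1, annotated as a pseudogene in RefSeq, lay at 0 to 1.21 CPM.

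The genes whose levels ran closest to those of Cpa3 over the 6 libraries were Arhgef28, Fry, Polg, Trir, Abhd14b, Wdr48, Dnal1 and Trim3 (Pearson r from 0.984 to 0.995 on the log2 scale, among 11685 genes that averaged 5 CPM or more). This is a description over few points that share their library and depth. Tpsb2 ranked 161 (r = 0.912), Cma1 617 (0.816), Mcpt4 1013 (0.753), Hpgds 2644 (0.547), Kit 3622 (0.420) and Hdc 9722 (-0.489). The mast cell receptor gene Mrgprb1 ranked 50 (0.953).

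The wider mast cell pathway was read from 8 lists of 97 further genes, of which 76 had a row and 70 were tested. The lists also hold genes that other skin cells transcribe. Averages ran from above that of Cpa3 (34.3 CPM), as for Ctsd (634 CPM) and Cebpa (406 CPM), to below it. The part of mast cells in these levels was not tested. At an unadjusted p below 0.05, 2 of the 70 (2.86%) were lower in KO and 0 were higher, beside 2.88% of all genes in either direction. None passed after adjustment. The median log2 fold change was -0.02, with 39 genes below 0 and 31 above, beside 8106 below and 6200 above over all genes tested. The groups did not overlap for 6 of the 70, beside 7.84% of all genes. These shares were near those of all genes.

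Itga2 and Slc22a3 were the genes below the unadjusted threshold. Itga2 encodes the integrin chain CD49b, found on basophils and natural killer cells but also on basal keratinocytes. It was at 43.1, 46.4 and 34.1 CPM in WT and at 31.9, 26.1 and 27.9 CPM in KO, with every KO library below every WT library and a log2 fold change of -0.51 (SE 0.16, 95% interval -0.88 to -0.14, limma unadjusted p = 0.0129). Slc22a3 encodes an organic cation transporter that carries histamine. It was at 3.63, 5.09 and 4.62 CPM in WT and at 1.37, 3.64 and 1.76 CPM in KO, with KO replicate 2 just above WT replicate 1 and a log2 fold change of -0.92 (SE 0.38, limma unadjusted p = 0.0415). Both had an adjusted p above the threshold, and without WT replicate 2 no gene of these lists was lower at an unadjusted p below 0.05.

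Among the other surface genes, Cd63, a granule membrane protein exposed on degranulation, had a log2 fold change of -0.13, the serotonin transporter gene Slc6a4 -0.15 and Mrgprb1 0.08. Of the 19 tested genes of IgE receptor signaling, 0 passed and the median was 0.06. The most abundant were the calcium sensor gene Stim1 (0.02), the kinase gene Prkcd (0.07), the adaptor gene Grb2 (-0.06) and the phospholipase gene Plcg1 (0.16). Syk, the kinase that acts directly downstream of FcεRI, was at 55.4, 52.5 and 31.3 CPM in WT and at 32.6, 42.6 and 26.1 CPM in KO, and the values overlapped.

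Of the 7 tested genes listed for histamine handling and receptors, Slc22a3 was the only 1 below the unadjusted threshold. The list also held Tph1, a serotonin synthesis gene (log2 fold change -0.16). The vesicular transporter gene Slc18a2, which loads histamine into granules, had a log2 fold change of 0.03, and the degrading enzyme genes Maob and Hnmt had 0.14 and -0.37. Of 7 genes of the prostaglandin D2 and leukotriene C4 route 0 passed, with a median of 0.02. Ptgs1, the constitutive cyclooxygenase gene, had 0.25, the leukotriene helper gene Alox5ap -0.03, and the phospholipase gene Pla2g4a 0.35, with each KO library above each WT library. Ptgs2, the inducible cyclooxygenase gene, was at 134, 25.6 and 4.45 CPM in WT and at 29.4, 7.01 and 9.11 CPM in KO (log2 fold change -1.0, SE 1.09). WT replicate 1 was its highest and WT replicate 3 its lowest library, as for Hdc.

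Of 12 granule storage genes 0 passed, with 8 below 0, 4 above and a median of -0.07. Ndst1, Ext1 and Glce, genes of heparan sulfate and heparin synthesis, had log2 fold changes of 0.05, -0.07 and -0.11. The secretory GTPase gene Rab27b had 0.05. Ndst2 had -0.14 (SE 0.19) and the granule proteoglycan gene Srgn -0.44 (SE 0.38). Srgn was at 57.1 CPM in WT replicate 1 and at 17.6 to 25.3 CPM in the other libraries. Of 8 transcription factor genes 0 passed, with a median of 0.07, and the most abundant were Cebpa (0.10), Stat5b (0.10), Runx1 (-0.26) and Stat5a (0.19). Gata2 stood at 4.84, 7.53 and 5.11 CPM in WT and at 6.37, 8.97 and 3.82 CPM in KO. Of 7 growth and recruitment genes 0 passed and all 7 were below 0, with a median of -0.07, where 8106 of all 14306 genes were below 0. Kitl, which encodes stem cell factor, had -0.07, Il33 -0.38, Cxcl12 -0.14 and Csf2rb -0.01. Il33 and Csf2rb were highest in WT replicate 1 and lowest in WT replicate 3. Among other proteases 2 genes were tested, the lysosomal Ctsd (0.03) and Dpp4 (-0.40).

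**Figure D5:**
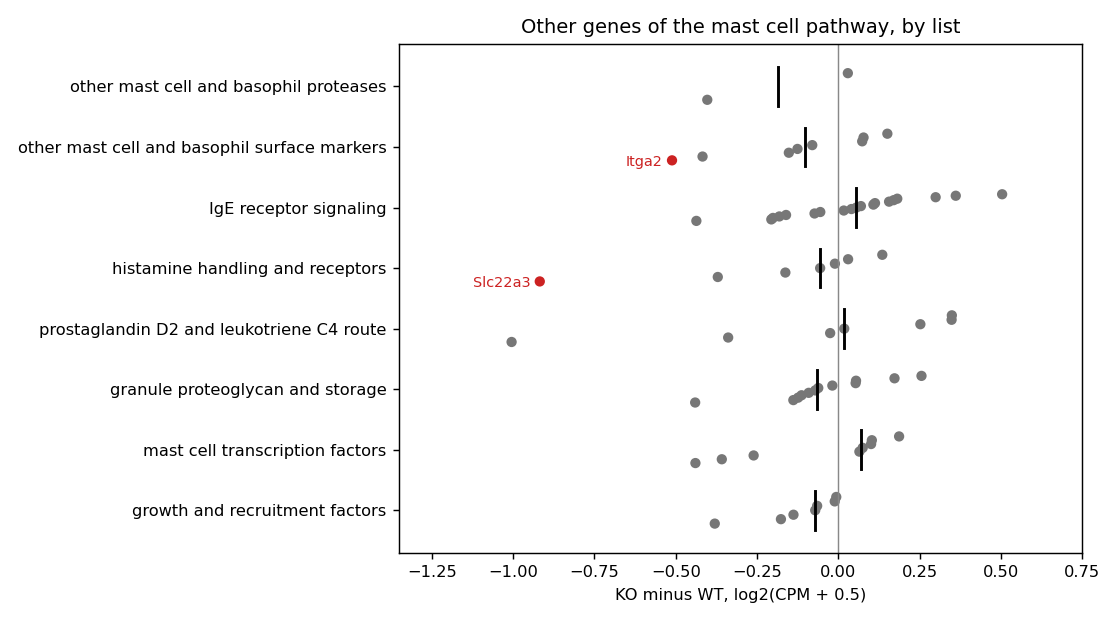
Difference between KO and WT skin for the 70 tested genes of 8 lists of the mast cell pathway (horizontal axis, log2(CPM + 0.5), KO minus WT). Each point is a gene, black bars are list medians, and red points are the genes at an unadjusted p below 0.05. Only Itga2 (-0.51) and Slc22a3 (-0.92) are red, and the list medians lie between -0.19 and 0.07.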

How the data were processed

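Genes and companion lists were chosen with earlier results of these data known. The authors trimmed reads, aligned them to mm10 with STAR 2.7.3a (both also in the submitters' processing notes) and quantified Ensembl transcripts in Partek Flow by expectation maximization, which can split reads between similar genes. The deposited values are CPM: counts per gene were divided by the library total, and the authors added a small offset, removed here. The sources used here do not give the authors' test for skin or whether counting was stranded, so overlapping genes can share reads. All 6 columns of values were used.

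Low values were mostly whole multiples of 1 step per library (91.9% to 92.8% within 0.1 of a whole read below 20 reads), which gave the implied depth. These reads are estimates, so a count model was not the main test. Values were analysed as log2(CPM + 0.5), for genes averaging 1 CPM or more, by limma 3.58.1 in R 4.3.3 (eBayes with trend, two-sided, no covariate, all 6 libraries), with Benjamini-Hochberg adjustment over all genes tested. Fold changes on this scale understate those of low genes. The limma fit, not the implied depth, was tested on simulated counts whose noise was independent for each gene and library. Samples were grouped by their labelled genotype, and 17 alternatives were run: other pseudocounts, filters and scalings, no trend, the replicate number as a block, array weights, a hair follicle covariate, limma voom on implied reads, and each library left out.

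Positions are those of the deposited table (mm10, counted from 1, ends lowered by 1). Of 15596 genes with a RefSeq entry, 64.2% shared the RefSeq start. Promoters were matched by symbol in RefSeq (GRCm38.p6), and transcript lengths in GENCODE. Genes were named by a rule: Adipoq, all members, genes of each companion list at an unadjusted p below 0.05 and its 4 most abundant, up to 3 genes of each marker list, and the 8 genes most correlated with Cpa3. Other genes (Mrgprb2, Syk, Gata2, Mmp8, Tyr, Tpsab1, Tpsg1, Cd200r3, Il3ra, Ccr3, Tph1, Ndst2 and Srgn) were chosen after their values were seen.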

Additional observations from a re-analysis of the deposited data

How the results depend on the processing

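Of the members' log2 fold changes, 128 kept their side of 0 under the alternatives and 22 changed it. Ms4a2 and Fcer1a were lower in KO in all alternatives that gave them a value (16 and 15). With array weights Cpa3 was -0.14 and Cma1 -0.10. With the hair follicle score as covariate Cpa3 was -0.0229, Kit -0.42, Hdc 0.58 and Hpgds 0.16, and with limma voom Cpa3 was -0.0455, Cma1 -0.0802 and Hdc 0.0538. Leaving out 1 library gave -0.22 to 0.25 for Cpa3, -0.28 to 0.42 for Cma1, -0.51 to 0.0287 for Mcpt4, -0.12 to 0.68 for Tpsb2, -0.37 to 0.0891 for Kit, -1.42 to 0.85 for Hdc and -0.41 to 0.28 for Hpgds. The cause was not tested.

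Over all genes, 260 were lower and 152 higher at an unadjusted p below 0.05. Lower counts were 414 with the replicate block, 420 with array weights and 569 with the hair covariate, and higher counts 232 with quantile normalization and 303 with the hair covariate. After adjustment limma called 1 lower and 1 higher gene, the hair covariate 3 and 6, and limma voom 0 lower. Without 1 library these were 147 to 394 lower, 89 to 313 higher, and 0 to 2 and 0 to 14 after adjustment. Members lower at an unadjusted p were 0 to 1. Of the companion genes (2 lower, 0 higher), 1 was lower and 1 higher with a filter at 5 CPM, 1 was higher with median-of-ratios rescaling, quantile normalization or array weights, 4 were lower with the replicate block, and 4 were lower and 1 higher with the hair covariate. Without 1 library 0 to 8 were lower and 0 to 2 higher.

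Same-numbered WT and KO libraries deviated together by 0.38, -0.31 and -0.22 (correlation of deviations). WT replicate 1 correlated best with its own number, and WT replicates 2 and 3 with another. These values cannot show whether the numbers pair the samples, since a single library can set the deviations of its group. Cpa3, Mcpt4 and Tpsb2 were lowest in replicate 1 and highest in replicate 2 of both groups, Cma1 in KO only. The block called 0 members, with an unadjusted limma p of 0.169 for Mcpt4 and 0.197 for Tpsb2, beside 0.355 and 0.538 without it. Depth limits Fcer1a and Ms4a2, where 3 reads equal 0.455 to 0.881 CPM.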
